A study of Mus musculus with 24 samples.

Results

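The Myc family and the Max network comprise the 10 genes *Myc*, *Mycn*, *Mycl*, *Max*, *Mxd1*, *Mxd3*, *Mxd4*, *Mxi1*, *Mnt* and *Mga*, which were found by gene symbol in both count tables. They were 10 of 35022 genes in the table for PD03 removal and 10 of 48709 genes in the table for CHIRON removal. E14 mouse embryonic stem cells (mESCs, labelled as a wild-type 129m strain) were placed on soft or stiff StemBond hydrogels coated with fibronectin and kept for 12 h in 2i+LIF, which contained 1 µM PD03 (an inhibitor of MEK, the kinase upstream of ERK) and 3 µM CHIRON (an inhibitor of GSK3, whose inhibition stabilises β-catenin). In one experiment PD03 was then taken away, which left CHIRON and LIF, and in the other CHIRON was taken away, which left PD03 and LIF. RNA was collected at 0 h, still in 2i+LIF, and at 2 h and 12 h, with 2 replicate libraries for each substrate and time. No library was kept in 2i+LIF until 2 h or 12 h. A response, meaning the change from 0 h, therefore cannot be told apart from a change with time on the substrate. The stiff group at 2 h after CHIRON removal is described from 1 library, because its other library held 171333 counts and was discarded by the study. All cells came from 1 line. The study's legends describe triplicate experiments, while the data hold 2 libraries a group. As no source used here says that replicates were separate cultures, p-values measure only the spread between these libraries.

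Myc proteins are transcription factors that bind the E-box CACGTG as partners of Max and activate genes of ribosome production, nucleotide synthesis and growth. The Mxd proteins, Mxi1 and Mnt also bind Max and repress from the same sites through Sin3 and histone deacetylases, and Mga carries Max into the polycomb complex PRC1.6, which silences germline genes in mESCs. In mESCs *Myc* is regulated by LIF, ERK and GSK3 signalling, and GSK3 also marks the Myc protein for degradation, an effect that RNA counts do not show.

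Libraries held 16222196 to 26442153 counts after PD03 removal and 19393787 to 31111260 counts in the 11 libraries kept after CHIRON removal. The labelled cell type matched its markers, since 7 of 7 embryonic stem cell markers were detected, with a summed level of 5652 to 6978 and 4872 to 5574 normalised CPM (counts scaled to a common library size) in the 2 experiments. Fibroblast markers summed to at most 6.82 CPM. Of 7 listed response genes of ERK and β-catenin, the ERK targets *Dusp6*, *Spry4* and *Spry2* rose at 2 h after PD03 removal (log2 fold changes 2.03 ± 0.04, 3.13 ± 0.06 and 0.62 ± 0.04, standard errors). The β-catenin targets *Axin2*, *Sp5*, *Lef1* and *Nkd1* fell at 12 h after CHIRON removal (-2.62 ± 0.06, -5.94 ± 0.09, -1.84 ± 0.18 and -1.30 ± 0.15), and of these *Lef1* (-0.01 ± 0.17) and *Nkd1* (0.20 ± 0.15) were not called at 2 h. The 2 groups did not keep to their own inhibitor. *Dusp6*, *Spry4* and *Spry2* also fell at 12 h after CHIRON removal, with PD03 still present (-0.46 ± 0.09, -2.39 ± 0.14 and -1.29 ± 0.07), and *Axin2* and *Lef1* rose at 12 h after PD03 removal (0.22 ± 0.04 and 0.59 ± 0.08). Differences are for TMM-normalised counts, and adjusted p-values come from the quasi-likelihood test of edgeR, adjusted by Benjamini-Hochberg over all genes tested, with calls at 0.05. All 10 genes passed the filter on low counts in both experiments.

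These 3 promoter stretches are shown because they carry the motif that Myc and Max proteins bind or, for *Mycn*, clustered matches to another motif. Sequences are from RefSeq on GRCm38.p6, read 5′ to 3′ on the strand of each gene, with motif matches in capitals. *Mnt* (chr11:74830674-74830919, plus strand) and *Mxd4* (chr5:34187721-34187960, minus strand) hold the E-box CACGTG, at 123 and 219 bases before the RefSeq start. *Mycn* (chr12:12941915-12942086, minus strand) holds 3 matches to the E2F motif TTTGGCGC or TTTCGCGC, the first of which overlaps the second on the other strand.
Mnt: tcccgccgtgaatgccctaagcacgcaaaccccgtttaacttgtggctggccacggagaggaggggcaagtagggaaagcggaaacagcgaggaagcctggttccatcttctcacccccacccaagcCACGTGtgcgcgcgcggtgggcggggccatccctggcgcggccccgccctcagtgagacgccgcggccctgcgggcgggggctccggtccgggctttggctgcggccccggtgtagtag
Mxd4: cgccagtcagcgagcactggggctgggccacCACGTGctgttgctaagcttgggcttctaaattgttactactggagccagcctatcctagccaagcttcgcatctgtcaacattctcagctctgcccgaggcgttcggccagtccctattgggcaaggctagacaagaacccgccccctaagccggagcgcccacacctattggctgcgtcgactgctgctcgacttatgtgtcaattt
Mycn: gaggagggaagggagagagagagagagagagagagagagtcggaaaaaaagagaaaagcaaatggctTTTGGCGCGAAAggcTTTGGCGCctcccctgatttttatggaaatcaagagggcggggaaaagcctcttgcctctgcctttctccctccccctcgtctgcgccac
Both strands were searched. The E-box was found in 7.15% and the E2F motif in 0.81% of 32851 whole promoter windows. Those windows reach past the RefSeq start and are longer than the exon-free stretches shown, so the shares are not for stretches of the printed lengths. *Max* also held an E-box, 3 bases before its RefSeq start. These matches are descriptions of the windows and not evidence of binding.

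The most abundant transcripts differed between the experiments already at 0 h, although both were in 2i+LIF. Per kb of exon, *Mycn* was highest before PD03 removal, at 36.8 ± 0.740 CPM per kb (SD, n = 4 libraries of both substrates), ahead of *Mga* at 28.2 ± 0.511, *Max* at 14.8 ± 0.436 and *Mycl* at 10.6 ± 0.429. *Myc* was eighth, at 1.96 ± 0.276 CPM per kb. Before CHIRON removal *Mnt* was highest, at 43.8 ± 2.83, followed by *Max* at 26.1 ± 1.87. *Mga* at 18.5 ± 2.88, *Mycn* at 18.3 ± 1.63 and *Myc* at 15.7 ± 1.32 CPM per kb followed, and of these neighbours *Mga* overlapped *Mycn*, and *Mycn* overlapped *Myc*. *Mxd4* was lowest in both. With the longest transcript as the length, the order before PD03 removal was the same, but before CHIRON removal *Max* (48.4 CPM per kb) came above *Mnt* (44.2) and *Mycn* (22.6) above *Mga* (20.4). The experiments were deposited as separate tables and normalised separately, so a difference in level between them cannot be told apart from a difference in how they were run, and responses were compared only within each experiment or as differences of responses.

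*Myc* (GRCm38 chromosome 15, 61985391 to 61990374, plus strand) rose within 2 h of PD03 removal and stayed up. On soft substrates its level was 5.06 and 4.37 CPM at 0 h, 14.7 and 12.9 CPM at 2 h and 14.2 and 10.9 CPM at 12 h. On stiff substrates it was 5.85 and 5.98 CPM at 0 h, 17.9 and 20.6 CPM at 2 h and 19.7 and 18.1 CPM at 12 h. Every library at 2 h and 12 h lay above every library at 0 h. The log2 fold change at 2 h was 1.54 ± 0.16 on soft (edgeR adjusted p = 1.5e-07) and 1.70 ± 0.14 on stiff substrates (adjusted p = 1.5e-09). At 12 h it was 1.40 ± 0.16 on soft (edgeR adjusted p = 8.7e-08) and 1.67 ± 0.15 on stiff substrates (adjusted p = 2.8e-10). The 2 h and 12 h comparisons share their 0 h libraries. In bulk RNA a change in the number of expressing cells and a change in RNA per cell cannot be told apart.

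*Myc* fell after CHIRON removal, from a level several-fold higher in that table. On soft substrates it was 45.9 and 40.8 CPM at 0 h, 36.0 and 29.1 CPM at 2 h and 8.73 and 8.83 CPM at 12 h. On stiff substrates it was 38.5 and 45.4 CPM at 0 h, 32.1 CPM in the 1 library at 2 h, and 13.7 and 15.4 CPM at 12 h. The 12 h libraries lay below all others. The log2 fold change at 12 h was -2.30 ± 0.13 on soft (edgeR adjusted p = 1.6e-09) and -1.53 ± 0.13 on stiff substrates (adjusted p = 1.7e-07). At 2 h the mean over substrates was -0.40 ± 0.09, which missed the threshold in edgeR's test (adjusted p = 0.059). That value passed with DESeq2 (adjusted p = 0.040), and in edgeR's test without soft 2 h replicate 1 (adjusted p = 0.038) or without stiff 0 h replicate 1 (adjusted p = 0.031).

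*Myc* moved in opposite directions after the 2 removals, from different levels at 0 h. In a fit of all 23 libraries, the response to PD03 removal exceeded that to CHIRON removal by 2.03 ± 0.15 on the log2 scale at 2 h (edgeR adjusted p = 1.2e-09) and by 3.45 ± 0.15 at 12 h (adjusted p = 1.5e-15). The spread between replicate libraries (edgeR's common biological coefficient of variation) was 0.039 in the PD03 experiment and 0.080 in the CHIRON experiment. The joint fit had a common value of 0.060. Standard errors and adjusted p-values of all differences between the removals therefore pool unequal spreads and are approximate.

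**Figure D1:**
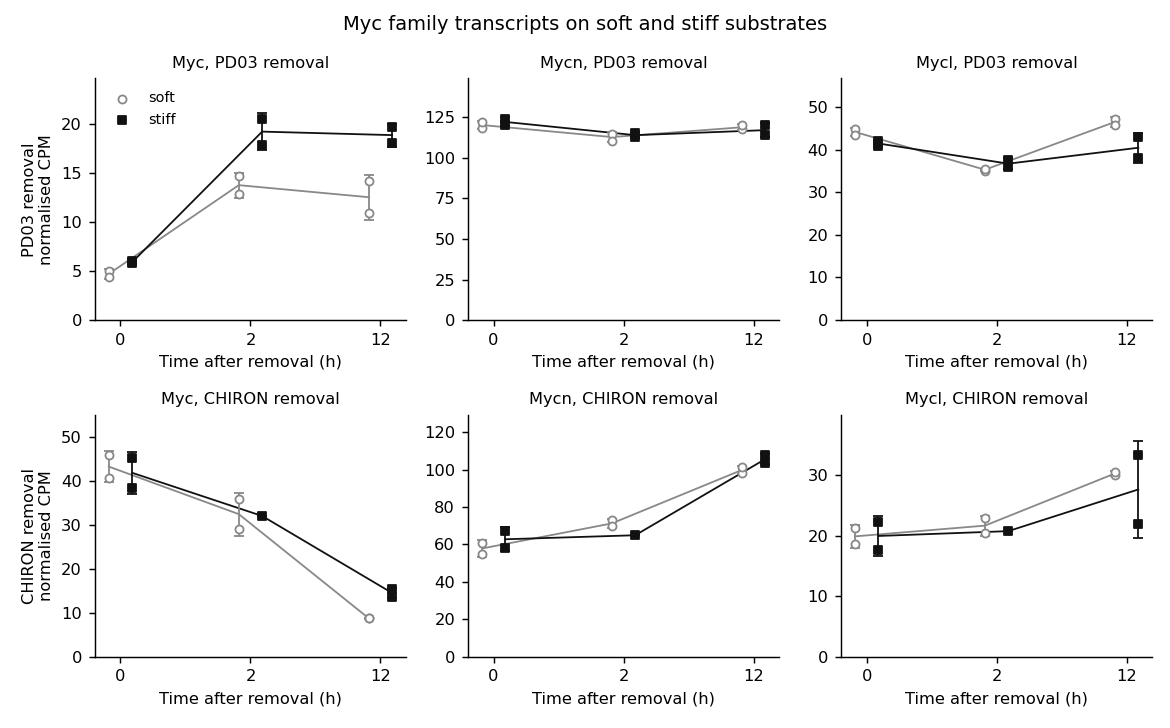
Normalised CPM of *Myc*, *Mycn* and *Mycl* (vertical axes, each from 0) at 0, 2 and 12 h (evenly spaced categories), with 1 point per library, means joined by lines and bars of 1 SD where there are 2 libraries. *Myc* reached 10.9 to 20.6 CPM after PD03 removal from 4.37 to 5.98 CPM, and fell to 8.73 to 15.4 CPM at 12 h after CHIRON removal.

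At 12 h the *Myc* level was lower in both soft libraries than in both stiff ones, but the call was not stable. After PD03 removal the 12 h difference (soft minus stiff) was -0.59 ± 0.13 on the log2 scale (edgeR adjusted p = 0.021). It was the only one of the 10 genes called, where 0.767% of all genes tested were called. The call was lost with DESeq2 (adjusted p = 0.072), without soft 12 h replicate 2 (edgeR adjusted p = 0.44), without stiff 12 h replicate 1 (adjusted p = 0.30) and without stiff 12 h replicate 2 (adjusted p = 0.11). In the PD03 experiment both soft libraries also lay below both stiff ones at 0 h and at 2 h. The substrates likewise did not overlap in *Mycl* at 0 h, 2 h and 12 h, or in *Mga* at 0 h and 12 h. The same held for *Mxd1* at 2 h and 12 h, *Mxd4* at 0 h and *Mxd3* at 2 h. The share of all genes that separate in this way was not computed, so separation alone does not set *Myc* apart. The *Myc* differences at 0 h, -0.32 ± 0.18, and at 2 h, -0.48 ± 0.13, were not called, with 0.0298% and 0.134% of all genes called. None of the 10 genes was called at either time by edgeR's test, while 1 gene at 0 h and 2 genes at 2 h had an unadjusted p under 0.05 and DESeq2 called 0 of 10 at each. The response on soft minus that on stiff substrates was -0.15 ± 0.22 at 2 h and -0.27 ± 0.22 at 12 h, and neither was called (edgeR adjusted p = 0.99 and 0.89, with 0.00745% of all genes called at 2 h and 0% at 12 h).

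In the CHIRON experiment the soft and stiff libraries overlapped in *Myc* at 0 h and at 2 h. The 12 h difference of *Myc* between substrates was of similar size to that after PD03 removal, -0.73 ± 0.14. Again both soft libraries lay below both stiff ones, as they also did for *Mycn*. The unadjusted p of the *Myc* difference was 7.7e-05 and its edgeR adjusted p 0.999. The comparison called 0% of 14615 genes and gave 471 of them an unadjusted p under 0.05. DESeq2 gave an adjusted p of 0.14. Without the filter on low counts the edgeR adjusted p was 0.00028, but the fit then had infinite prior degrees of freedom (12.4 with the filter), so that the gene's own spread no longer entered its test. The soft minus stiff difference of the 12 h response was -0.78 ± 0.18 (edgeR adjusted p = 1.00). None of the other 9 genes was called between substrates by edgeR's test at any time in the PD03 experiment, or at 0 h and 12 h in the CHIRON experiment. At 0 h in the CHIRON experiment 0% of all genes tested were called, and 1 of the 10 had an unadjusted p under 0.05. As no gene was called at 0 h or 12 h there, the lack of calls does not describe these 10 genes. The 2 h comparison there rested on 1 stiff library.

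*Mycn*, the family member with the highest level per kb in the PD03 experiment, did not pass the test after PD03 removal. Its 12 libraries ranged from 110.6 to 124.1 CPM, and its 12 h log2 fold change over both substrates was -0.04 ± 0.04 (edgeR adjusted p = 0.40). At 2 h its libraries, at 110.6 to 115.3 CPM, all lay below those at 0 h, at 118.4 to 124.1 CPM. After CHIRON removal it rose. On soft substrates it was 54.7 and 61.0 CPM at 0 h, 72.9 and 69.6 CPM at 2 h and 98.3 and 101.3 CPM at 12 h. On stiff substrates it was 67.4 and 58.2 CPM at 0 h, 64.9 CPM in the 1 library at 2 h and 103.6 and 107.6 CPM at 12 h. No library at 12 h overlapped an earlier one. The 12 h change was 0.79 ± 0.09 on soft (edgeR adjusted p = 4.8e-06) and 0.75 ± 0.09 on stiff substrates (adjusted p = 8e-06). The 12 h response differed between the removals by -0.81 ± 0.07 (PD03 minus CHIRON, edgeR adjusted p = 7.2e-10).

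*Mycl*, the family member known for weaker transforming activity, dipped at 2 h after PD03 removal and rose by 12 h after CHIRON removal. In the PD03 experiment it was 40.9 to 44.9 CPM at 0 h, 35.1 to 37.6 CPM at 2 h and 37.9 to 47.2 CPM at 12 h. No 2 h library overlapped the 0 h libraries, and the change over both substrates was -0.25 ± 0.05 (edgeR adjusted p = 0.0035). In the CHIRON experiment it was 17.6 to 22.3 CPM at 0 h and 22.01 to 33.3 CPM at 12 h, and the groups overlapped through 1 stiff library. The 12 h change over both substrates was 0.54 ± 0.11 (edgeR adjusted p = 0.0013), and the difference between the removals was -0.52 ± 0.13 (adjusted p = 0.0021).

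The make-up of the family shifted while its summed level moved less. In the CHIRON experiment *Myc* made up 35.3% to 43.6% of the summed family level per kb at 0 h and 7.82% to 12.18% at 12 h, and the sum was 38.1 to 40.2 CPM per kb at 0 h and 40.4 to 46.6 at 12 h. The ratio of *Mycn* to *Myc* per kb, in which library depth cancels, went from 0.983 to 1.44 at 0 h to 5.76 to 9.46 at 12 h. In the PD03 experiment the ratio was 16.9 to 22.99 at 0 h and 5.02 to 9.05 at 12 h, and the share of *Myc* was 3.26% to 4.42% and then 7.77% to 13.4%. The ranges at 0 h and 12 h did not overlap in either experiment. With 2 libraries a group, these ratios were not tested.

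**Figure D2:**
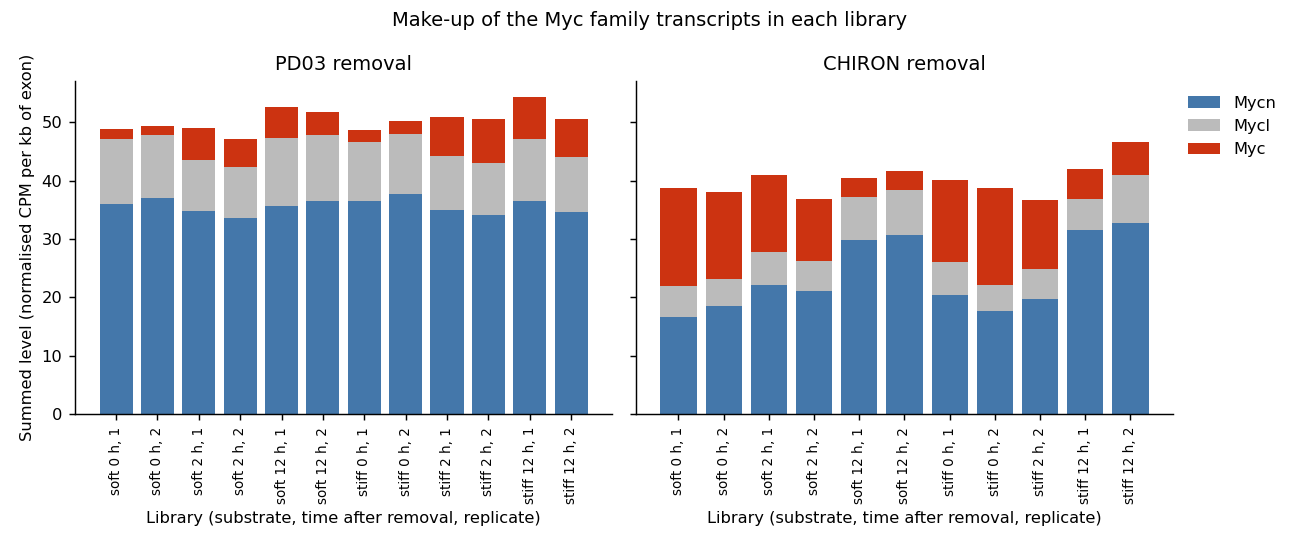
Summed level of the Myc family in each library (vertical axis, normalised CPM per kb of exon), split into *Mycn*, *Mycl* and *Myc*. After CHIRON removal the share of *Myc* fell to 7.82% to 12.18% at 12 h while that of *Mycn* grew, and after PD03 removal the share of *Myc* was larger at 2 h and 12 h than at 0 h.

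*Max*, the shared partner, changed little. In the PD03 experiment it was 52.2 to 55.6 CPM at 0 h and 46.0 to 51.6 CPM at 2 h. These did not overlap, and the 2 h change was not called. At 12 h it was 56.9 to 62.6 CPM, above all libraries at 0 h. Its change there was 0.17 ± 0.05 (edgeR adjusted p = 0.0067), and the call was lost without stiff 12 h replicate 1 (0.14, adjusted p = 0.056). After CHIRON removal it went from 85.4 to 101.9 CPM at 0 h to 107.2 to 119.9 CPM at 12 h, a change of 0.26 ± 0.07 (edgeR adjusted p = 0.0051).

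Of the 5 repressors that pair with Max, *Mxd3*, *Mxd4* and *Mxi1* rose by 12 h after CHIRON removal. *Mxd3*, which is known for expression in dividing cells, was 4.13 and 4.94 CPM on soft and 3.74 and 2.45 CPM on stiff substrates at 0 h, and 7.12, 8.26, 9.13 and 7.51 CPM at 12 h. All 12 h libraries lay above all 0 h libraries, and the change over both substrates was 1.09 ± 0.16 (edgeR adjusted p = 3.3e-05). *Mxd3* shares 105 bases with *Prelid1* on the opposite strand, and the strand setting of the counting is not given in the sources used here. *Prelid1*, scaled like the marker sums and so not in the unit used for *Mxd3*, had a mean of 256.8 CPM at 0 h and 270.2 CPM at 12 h. Its part in the *Mxd3* counts was not tested. *Mxd4* went from 2.17 to 2.82 CPM at 0 h to 3.85 to 4.90 CPM at 12 h (0.81 ± 0.18, edgeR adjusted p = 0.0018), with no overlap.

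*Mxi1*, also called Mad2, went from 23.9 to 26.8 CPM at 0 h to 33.2 to 35.8 CPM at 12 h after CHIRON removal, again with no overlap (0.43 ± 0.07, edgeR adjusted p = 0.00019). After PD03 removal *Mxi1* changed by 0.04 ± 0.06 and *Mxd3* by 0.17 ± 0.13, and neither was called. *Mxd4* fell there by 0.34 ± 0.11 on the log2 scale (edgeR adjusted p = 0.015), a call that was lost with DESeq2 (adjusted p = 0.056) and without stiff 0 h replicate 1 (-0.30, edgeR adjusted p = 0.055). The difference between the removals at 12 h was -0.91 ± 0.20 for *Mxd3* (edgeR adjusted p = 0.00089), -1.16 ± 0.19 for *Mxd4* (adjusted p = 2.5e-05) and -0.39 ± 0.09 for *Mxi1* (adjusted p = 0.00091).

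*Mnt* is the most widely expressed of the repressors, and *Mxd1* is known for its rise in differentiating cells. *Mnt* was 183.8 to 214.0 CPM at 0 h and 173.3 to 186.5 CPM at 12 h after CHIRON removal, so that the groups overlapped. Its change of -0.18 ± 0.06 passed edgeR's test (adjusted p = 0.037). That call was lost in 11 alternatives, with adjusted p of 0.14, 0.089, 0.11, 0.23, 0.11, 0.070 and 0.054 when 1 library was left out, namely soft 0 h replicate 1 or 2, soft 12 h replicate 2, stiff 0 h replicate 2, stiff 12 h replicate 1 or 2, and stiff 2 h replicate 2. *Mxd1* ranged from 7.19 to 10.1 CPM in the PD03 experiment and from 6.58 to 11.1 CPM in the CHIRON experiment, with no call in any comparison.

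*Mga* rose slightly at 12 h after PD03 removal, from 423.5 to 442.4 CPM at 0 h to 470.8 to 488.7 CPM, without overlap (0.15 ± 0.03, edgeR adjusted p = 0.0004). After CHIRON removal its libraries were widely spread, at 243.1 to 346.6 CPM at 0 h and 239.0 to 349.4 CPM at 12 h, and its change of 0.08 ± 0.10 was not called.

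**Figure D3:**
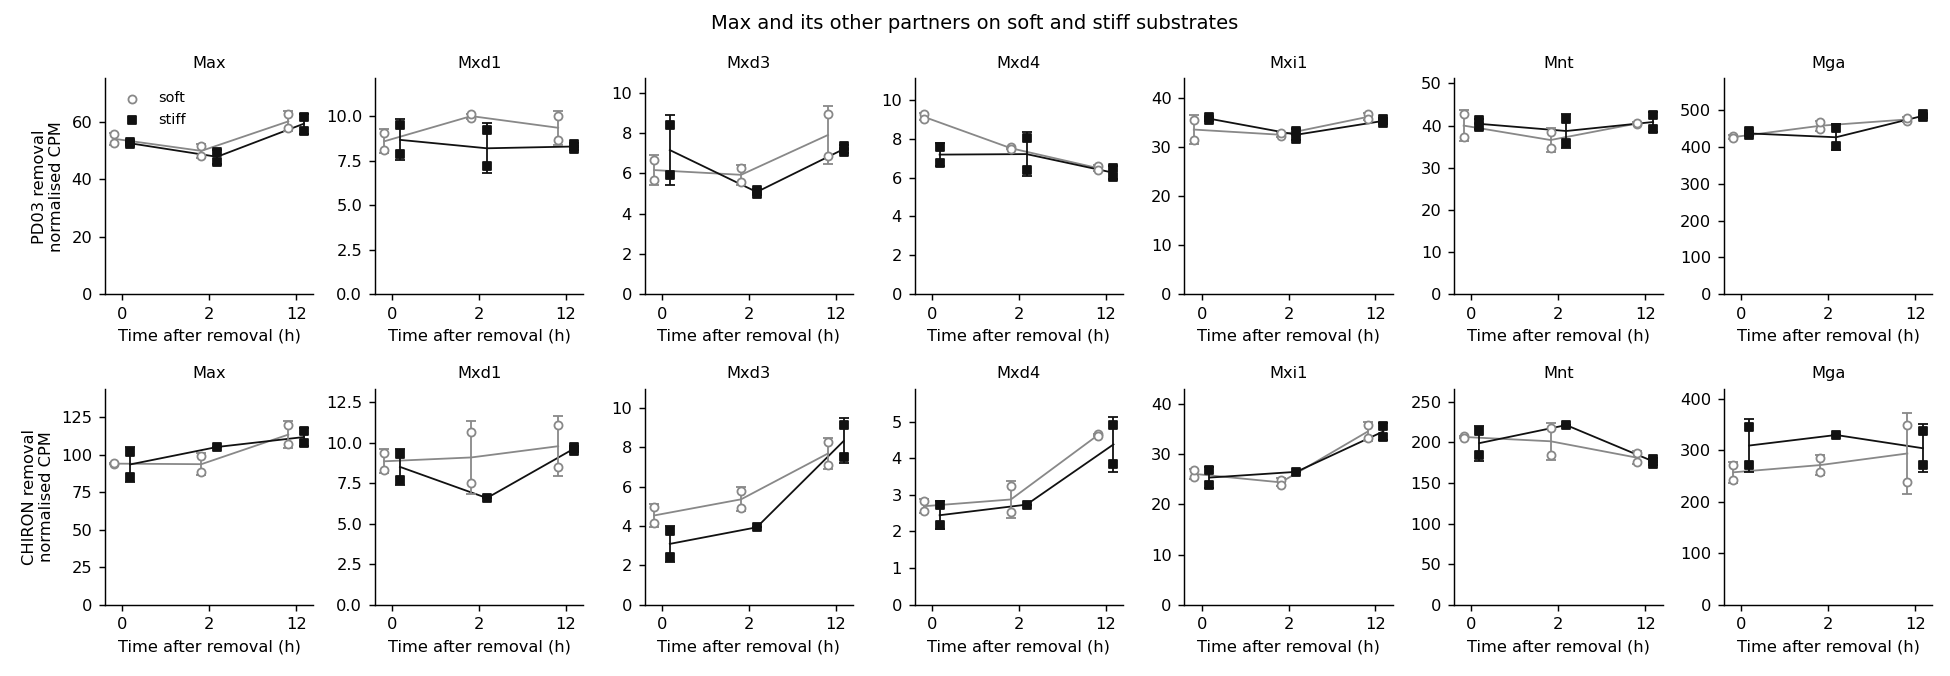
Normalised CPM of *Max*, the 5 repressors and *Mga* (vertical axes, each from 0) at 0, 2 and 12 h (evenly spaced categories), with 1 point per library, means joined by lines and bars of 1 SD where there are 2 libraries. *Mxd3*, *Mxd4* and *Mxi1* lie higher at 12 h than at 0 h after CHIRON removal on both substrates.

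In all, 6 of the 10 genes rose and 2 fell at 12 h after CHIRON removal over both substrates, where 30.7% of all genes tested were called. The median log2 fold change of the 10 was 0.35, against -0.01 for all genes. At 12 h after PD03 removal 3 rose and 1 fell, where 48.9% of all genes were called, so the count of 4 of 10 was near that share. At 2 h, 1 rose and 1 fell after PD03 removal, against 6.06% of all genes. At 2 h after CHIRON removal edgeR's test called 0 of 10 against 0.828% of all genes, with 2 genes at an unadjusted p under 0.05 and 1 called by DESeq2. Replicate libraries were more widely spread in the CHIRON experiment, so numbers and shares of genes called cannot be compared between the experiments. The difference between the removals at 12 h was called for 6 of 10, where 40.6% of all genes were called. At 2 h it was called for 2 of 10 against 4.19%, and the second, *Mycn* (-0.26 ± 0.07, edgeR adjusted p = 0.045), lost its call in 16 alternatives, in 11 of them by the loss of 1 library (edgeR adjusted p up to 0.11). These were the 8 libraries at 0 h and 2 h after PD03 removal and, after CHIRON removal, soft 0 h replicate 1, soft 2 h replicate 1 and stiff 0 h replicate 2.

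Within single substrates fewer calls were stable. At 2 h after PD03 removal *Myc* rose and *Mycl* fell on soft substrates (1.96% of all genes called), and *Myc* rose on stiff ones (2.73%). The soft call of *Mycl* was lost without any 1 of the 4 libraries compared (edgeR adjusted p = 0.077 to 0.19) and with DESeq2 (adjusted p = 0.058). At 12 h 2 rose and 1 fell on soft substrates (29.4% of all genes called) and 3 rose on stiff ones (38.4%). On soft substrates *Mxd4* lost its call without any 1 of the 4 libraries (edgeR adjusted p = 0.059 to 0.099) and with DESeq2 (adjusted p = 0.070). *Mga* lost its call there without replicate 2 at 0 h or at 12 h (edgeR adjusted p = 0.079 to 0.086). On stiff substrates *Max* lost its call without replicate 1 or 2 at 0 h or replicate 1 at 12 h (edgeR adjusted p = 0.10 to 0.37), with DESeq2 (adjusted p = 0.097), without the filter on low counts (0.073) and with the replicate block (0.051). *Mga* lost its stiff call without replicate 1 at 0 h or replicate 2 at 12 h (edgeR adjusted p = 0.087 to 0.089).

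At 12 h after CHIRON removal 5 rose and 1 fell on soft substrates (17.8% of all genes called), and 4 rose and 1 fell on stiff ones (16.8%). *Max* on soft substrates, not called in the main fit, gained a call under some alternatives. Among them were the size factors of DESeq2 (edgeR adjusted p = 0.049) and only the groups compared (edgeR adjusted p = 0.023). *Mycl* on stiff substrates, also not called in the main fit, was called by DESeq2 (adjusted p = 0.048). *Myc* and *Mycn* kept their calls on both substrates, and *Mxd3* on stiff ones, whichever library was left out. On soft substrates *Mycl* lost its call without replicate 2 at 0 h (edgeR adjusted p = 0.13), and *Mxd3* without replicate 1 or 2 at 0 h or replicate 2 at 12 h (adjusted p = 0.055 to 0.14). *Mxi1* lost its soft call without replicate 1 at 0 h or at 12 h (edgeR adjusted p = 0.067 to 0.084) and its stiff call without the same replicate numbers (adjusted p = 0.054 to 0.060). *Mxd4* lost its soft call without any 1 of the 4 libraries (edgeR adjusted p = 0.097 to 0.16) and its stiff call without replicate 2 at 0 h or at 12 h (adjusted p = 0.18 to 0.24). DESeq2 also called neither *Mxd4* change (adjusted p = 0.062 on soft and 0.051 on stiff substrates). At 2 h none of the 10 was called by edgeR's test on soft (0.226% of all genes, 2 members at an unadjusted p under 0.05) or stiff substrates (0.103%, 1 member), and DESeq2 also called 0 on each.

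From 2 h to 12 h after PD03 removal 2 genes rose on soft substrates (31.4% of all genes called) and 3 on stiff ones (37.5%). *Max* rose on both, by 0.27 ± 0.07 and 0.32 ± 0.07, and *Mycl* rose on soft substrates (0.40 ± 0.08). The soft call of *Max* was lost without soft 12 h replicate 1 or soft 2 h replicate 2 (edgeR adjusted p = 0.076 to 0.085). *Mga* rose on stiff substrates (0.19 ± 0.05), a call lost without stiff 2 h replicate 1 (edgeR adjusted p = 0.12), and *Mxd3* rose there (0.51 ± 0.20), a call lost without any 1 of the 4 libraries (adjusted p = 0.10 to 0.16) and with DESeq2 (0.10). After CHIRON removal 4 rose and 1 fell from 2 h to 12 h on soft substrates (16.9% of all genes called), and 2 rose and 1 fell on stiff ones (10.4%), where the 2 h group was 1 library. *Myc* fell and *Mycn* rose on both, by -1.89 ± 0.14 and 0.49 ± 0.09 on soft and by -1.14 ± 0.15 and 0.70 ± 0.11 on stiff substrates. The soft calls of *Max* (0.28 ± 0.09) and *Mycl* (0.48 ± 0.16) were lost without single libraries, with edgeR adjusted p = 0.054 to 0.31 and 0.056 to 0.24. For *Max* these were soft 0 h replicates 1 and 2, soft 12 h replicate 1, soft 2 h replicate 2 and stiff 12 h replicates 1 and 2, and for *Mycl* soft 0 h replicate 2 and all 4 soft libraries at 2 h and 12 h. *Max* was also not called by DESeq2 (adjusted p = 0.054), and the stiff call of *Mxd3* (1.08 ± 0.27) was lost without stiff 12 h replicate 1 (edgeR adjusted p = 0.096).

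**Figure D4:**
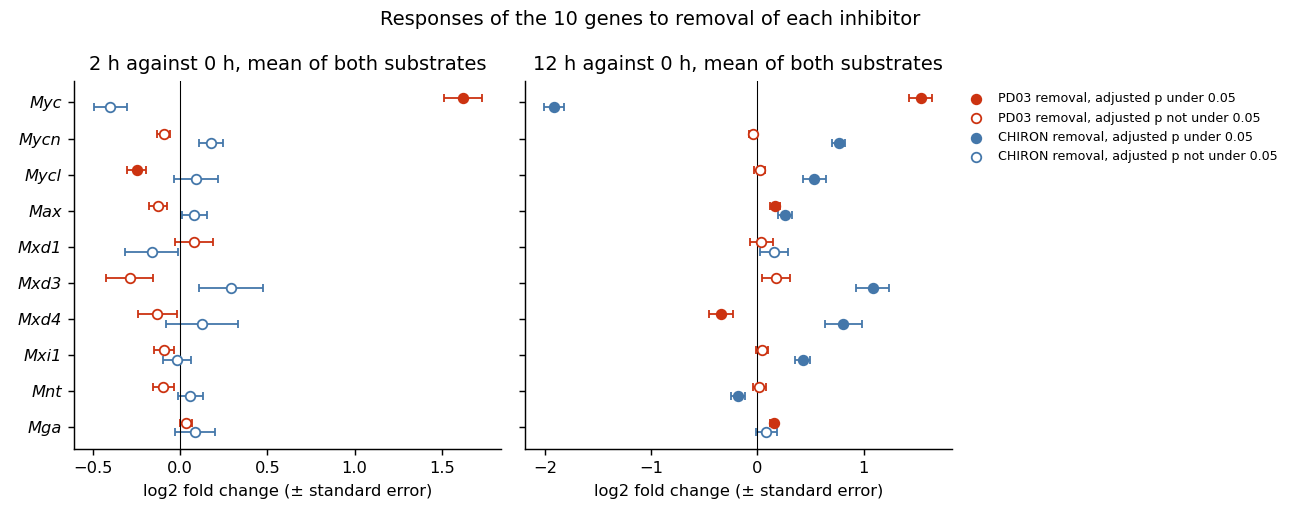
Log2 fold change against 0 h, averaged over both substrates (horizontal axes, different in scale), of the 10 genes at 2 h (left) and 12 h (right), with bars of 1 standard error and filled points where the edgeR adjusted p was under 0.05. *Myc* is at 1.54 after PD03 removal and -1.92 after CHIRON removal at 12 h.

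Of 40 listed genes that Myc is known to activate, 24 fell and 3 rose at 12 h after CHIRON removal, with a median log2 fold change of -0.19, while 15.4% of all genes tested fell and 15.2% rose. The genes that fell included *Prmt5*, an arginine methyltransferase (-0.38 ± 0.05), *Shmt1*, of folate metabolism (-0.41 ± 0.06), and *Gnl3*, the nucleolar protein nucleostemin (-0.38 ± 0.05). Those that rose were *Ldha*, lactate dehydrogenase (0.89 ± 0.06), *Hk2*, a hexokinase (0.17 ± 0.05), and *Eif4a1*, a translation initiation factor (0.16 ± 0.05). After PD03 removal 16 of the 40 rose and 9 fell, with a median of 0.02, while 23.8% of all genes rose and 25.1% fell. Among the 16 were *Ccnd2*, cyclin D2 (2.61 ± 0.32), the nucleolar gene *Ncl* (0.44 ± 0.04) and *Ppan*, of ribosome assembly (0.31 ± 0.03). *Ccnd2* had a low level, at 0.25 to 0.64 CPM at 0 h and 1.93 to 3.24 CPM at 12 h. *Hspe1* (-0.22 ± 0.04), *Hspd1* (-0.15 ± 0.03) and *Eif4a1* (-0.14 ± 0.03) fell.

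Of the 40, 11 fell after CHIRON removal and rose after PD03 removal, 3 fell after both, and 0 rose after both by edgeR's test. *Eif4a1* went the other way, with a rise after CHIRON removal and a fall after PD03 removal. The share of all genes with each of these pairs of directions was not computed, so the 11 has no background to be read against. At 12 h the difference between the removals was positive for 25 of the 40 and negative for 2. Of all genes tested, 20.8% had a positive and 19.8% a negative difference that was called. Of 9 genes that Myc is known to repress, 3 rose and 1 fell after CHIRON removal, where 30.7% of all genes were called. *Ndrg1* (1.25 ± 0.09) and the cell cycle inhibitors *Cdkn1b* (0.53 ± 0.07) and *Cdkn1c* (0.97 ± 0.26) rose, and *Cdkn1a* fell by 0.68 ± 0.06. *Cdkn1c* had a low level, at 1.23 to 2.30 CPM at 0 h and 2.93 to 4.61 CPM at 12 h. After PD03 removal 3 rose and 2 fell, where 48.9% of all genes were called. *Gadd45a*, a stress response gene (1.02 ± 0.07), *Gata6* (1.22 ± 0.29) and *Txnip* (0.09 ± 0.04) rose, and *Ndrg1* (-0.58 ± 0.10) and *Cdkn1b* (-0.22 ± 0.06) fell. *Gata6* had a low level, at 0.46 to 1.13 CPM at 0 h and 1.57 to 1.80 CPM at 12 h.

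**Figure D5:**
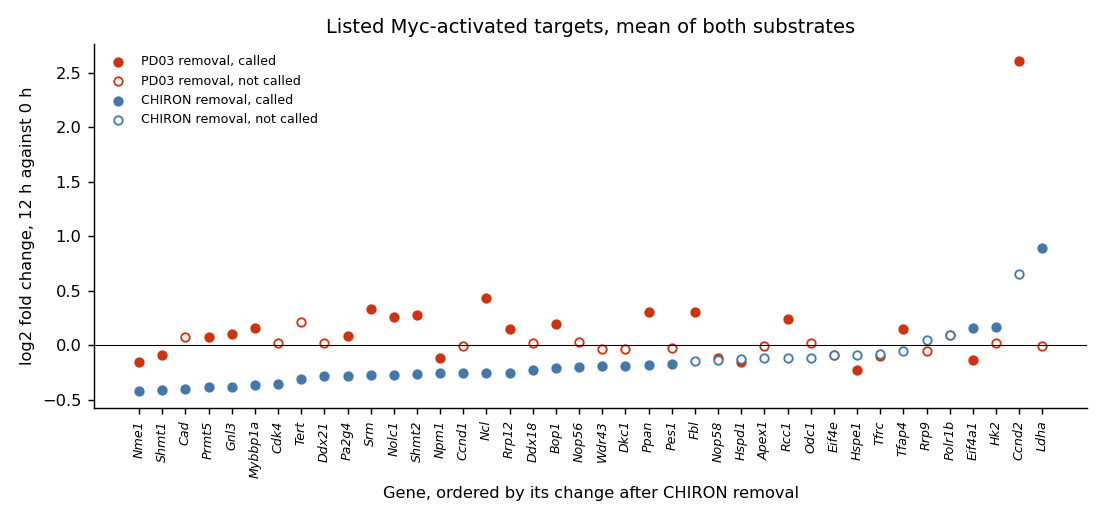
Log2 fold change at 12 h against 0 h, averaged over both substrates (vertical axis), of 40 listed Myc-activated targets, ordered by their change after CHIRON removal, with filled points where the edgeR adjusted p was under 0.05. After CHIRON removal 24 fell, and after PD03 removal 16 rose and 9 fell.

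Other genes of the network are given as counts at 12 h over both substrates, to be read against the 30.7% of all genes called after CHIRON removal and the 48.9% called after PD03 removal. Of the 3 genes of the branch that pairs with Mlx, a relative of Max, 2 rose after CHIRON removal, and 2 rose and 1 fell after PD03 removal. *Mlxipl*, the glucose-responsive factor ChREBP, rose after both (1.16 ± 0.10 and 0.78 ± 0.13). *Mlx* rose after CHIRON removal (0.46 ± 0.09) and fell by 0.18 ± 0.05 after PD03 removal, and *Mlxip* rose after PD03 removal (0.47 ± 0.08) and was not called after CHIRON removal (0.18). Of 13 Myc cofactors 2 rose and 2 fell after CHIRON removal, and 8 rose and 2 fell after PD03 removal, among them *Kat2a*, an acetyltransferase (0.40 ± 0.04), and *Wdr5* (-0.30 ± 0.03). The 4 of 13 called after CHIRON removal are near the share of all genes. Of 9 Sin3 and histone deacetylase genes 3 rose and 1 fell after CHIRON removal, and 2 rose and 5 fell after PD03 removal. *Sap30* and *Hdac2* moved in both, by 0.36 ± 0.07 and 0.18 ± 0.05 after CHIRON removal and by -0.42 ± 0.05 and -0.26 ± 0.03 after PD03 removal.

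Of 13 tested genes that act on Myc protein stability, 3 rose and 1 fell after CHIRON removal, and 5 rose and 3 fell after PD03 removal, so that 4 and 8 of 13 were called against 30.7% and 48.9% of all genes. *Aurka*, a kinase that stabilises N-Myc, rose after CHIRON removal (0.47 ± 0.05). Of 9 PRC1.6 partners of Mga, 2 rose and 2 fell after CHIRON removal, and 1 rose and 1 fell after PD03 removal. Of the germline genes that PRC1.6 binds, edgeR's test called 0 of 7 after CHIRON removal and 1 of 6 after PD03 removal, *Dazl* (-0.40 ± 0.04). After PD03 removal both counts, 2 of 9 and 1 of 6, were below the 48.9% of all genes called.

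Among cell type markers, 5 of 7 of embryonic stem cells and 6 of 6 of two-cell-like cells fell at 12 h after PD03 removal, where 25.1% of all genes fell. After CHIRON removal 4 of 7 stem cell markers rose and 3 fell, where 15.2% of all genes rose and 15.4% fell. The summed two-cell-like level ranged from 102.3 to 186.0 and from 130.2 to 166.3 CPM in the 2 experiments. Primitive endoderm markers summed to at most 17.6 CPM and trophoblast markers to at most 108.5 CPM. Their part in the changes above was not tested.

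Across the 12 groups of both experiments, each experiment centred on its own mean, the genes most like *Myc* were *Sirt1* (Pearson r = 0.977), *Mkrn1* (r = 0.965) and *Bmp4* (r = 0.963), of 13171 genes compared. Those most like *Mycn* were *Cdca3* (r = 0.980), *Plekha2* (r = 0.979) and *Dusp14* (r = 0.976). The groups share times, substrates and media, and the values are descriptions.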

How the data were processed

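RNA from ribosome-depleted libraries was counted per gene. The authors trimmed reads with Trim Galore, aligned them to mm10 with TopHat2 2.1.0, and deposited raw featureCounts 1.5.0 counts, per the submitters' processing notes. The strand setting is not given in the sources used here. Another 12 columns of other samples were not used.

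The 10 members and all gene lists were chosen with earlier results of these data known. Named list genes were at most 3 in each direction with the smallest adjusted p at 12 h over both substrates. Protein-coding genes passing filterByExpr (minimum count 10, minimum total 15) were fitted per experiment with edgeR 4.0.16 (R 4.3.3) after TMM scaling, with all groups in 1 fit. This gave 13423 and 14615 genes, and 13167 in the fit of 23 libraries. With 1 library, stiff at 2 h after CHIRON removal was assumed to vary like the other groups. Levels per kb used exon unions of GENCODE M21. Alternatives were DESeq2 1.42.0 and its size factors, no filter, all gene types, only the groups compared, replicate blocks, all 12 CHIRON libraries, and leaving out each library. The fits were tested on simulated counts.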

Additional observations from a re-analysis of the deposited data

How the results depend on the processing

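Of 280 member results, 56 were called, 28 of these under every alternative and 28 not, 13 others gained a call, and 0 reversed. The number of members called fell to 1 with DESeq2 (PD03, 2 h, soft) and to 0 (PD03, soft against stiff, 12 h). With all 12 CHIRON libraries it was 2 at 12 h on soft, 2 on stiff and 5 over both, and 1 on either substrate for 12 h against 2 h. For 12 h against 2 h after CHIRON removal it was 3 on soft with all gene types and 5 on stiff with only the groups compared. The difference between removals at 2 h fell to 1 with DESeq2, its size factors, no filter or all gene types. Without the filter 1 was called for CHIRON at 2 h on soft, at 2 h over both and between substrates at 12 h, and with DESeq2 1 at 2 h over both. The unfiltered fits had infinite prior degrees of freedom, against 22.4 (PD03) and 12.4 (CHIRON) with the filter, so their extra calls rest on the trend of the spread alone.

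Leaving out 1 library gave, after PD03 removal, 1 to 2 calls at 2 h on soft, 1 to 3 at 12 h on soft and on stiff, 1 to 2 and 1 to 3 for 12 h against 2 h on soft and stiff, and 0 to 1 between substrates at 12 h. After CHIRON removal it gave 3 to 7 at 12 h on soft, 3 to 5 for 12 h against 2 h on soft and on stiff, 0 to 1 at 2 h over both, and 1 to 2 for the difference between removals at 2 h. Leaving out the only stiff 2 h library gave no value for comparisons with that group.

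Deviations of libraries with the same replicate number were close to uncorrelated (mean correlation -0.00277 and -0.0198). In the CHIRON experiment replicate numbers do not follow the tube numbers throughout, so that value does not test pairing by tube. The replicate block gave 3 calls for 12 h against 2 h on soft after CHIRON removal, as did the block by tube number, and 1 for the difference between removals at 2 h. Its other counts stayed within 1.5 times. With 2 libraries a group, the depth and the spread limit the smallest change that can be called.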
